A study of Mus musculus with 6 samples.

Results

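The genes described here are 10 regulators of transcription elongation and DNA topology: the kinases *Cdk9*, *Cdk12* and *Cdk13*, their cyclins *Ccnt1*, *Ccnt2* and *Ccnk*, the elongation factors *Supt5*, *Supt6* and *Ell2*, and the topoisomerase *Top1*. They were chosen by symbol, as elongation genes on which the output of long genes depends, and make up 10 of the 52089 symbols and 105 of the 168021 lines of the table. The cells were primary brite adipocytes, that is, thermogenic adipocytes grown from the stromal-vascular fraction of inguinal white fat of 129SvEv mice. All of them had 2 days of induction and 1 day of differentiation with rosiglitazone, a PPARγ agonist, and all received 50 nM of an LNA gapmer, an antisense oligonucleotide that directs RNase H to its target RNA. In the *Ctcflos* KD group (n = 3) the gapmer targeted the long noncoding RNA *Ctcflos*, in the NC ctrl group (n = 3) it had no target, and RNA of both was taken 24 h later. Since each group had 1 kind of treatment, the loss of *Ctcflos* and other effects of its oligonucleotide cannot be told apart. The labels do not say that the replicates were separate cultures, so the p-values below measure the spread between these libraries, which may be technical.

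RNA polymerase II pauses shortly after it has started on most genes. P-TEFb, a kinase made of CDK9 and cyclin T1 or T2, releases it by phosphorylating the pausing factors DSIF and NELF and the C-terminal domain (CTD) of the polymerase. CDK12 and CDK13, both paired with cyclin K, phosphorylate the CTD further along the gene, and CDK12 is known for its part in the full-length expression of long genes. SPT5 is the large subunit of DSIF, SPT6 is a histone chaperone that travels with the polymerase, ELL2 raises the elongation rate within the super elongation complex, and topoisomerase I relaxes the supercoils that elongation leaves in DNA.

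The 10 genes lie on 7 chromosomes of GRCm38 (positions from Gencode vM21) and span 7.3 kb to 94.8 kb. *Cdk9* is the shortest, on the minus strand of chromosome 2 from 32705784 to 32713076, and its exons hold 2 microRNA genes of the same strand, *Mir2861* and *Mir3960*. The long ones are *Cdk13* (chromosome 13, 17710315 to 17805097, minus strand, 94.8 kb), *Top1* (chromosome 2, 160645888 to 160722764, plus strand, 76.9 kb), *Cdk12* (chromosome 11, 98203059 to 98278504, plus strand, 75.4 kb) and *Ell2* (chromosome 13, 75706757 to 75772364, plus strand, 65.6 kb). *Supt6* (chromosome 11, 78206746 to 78245987, minus strand, 39.2 kb), *Ccnt2* (chromosome 1, 127774164 to 127808061, plus strand, 33.9 kb) and *Ccnt1* (chromosome 15, 98538689 to 98570923, minus strand, 32.2 kb) are of middle length. *Supt5* (chromosome 7, 28314891 to 28338746, minus strand) and *Ccnk* (chromosome 12, 108179579 to 108203359, plus strand) span 23.9 and 23.8 kb. Genes on the opposite strand overlap 7.59% of the exon bases of *Ccnt1* (*9330020H09Rik*), 7.51% of *Supt5* (*Gm44709*), 3.41% of *Supt6* (*Sdf2*) and 0.96% of *Ell2* (*1700037F03Rik*). No source says that reads were counted by strand, so reads of these partners cannot be told apart from those of the members, and their values are uncertain to that extent. *Cdk12* shares 2.06% of the 50-base stretches of its longest transcript with *Gm14208*.

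The promoters of these genes were rich in GC. In the windows from 250 bases before to 50 bases after the start of a gene (RefSeq, GRCm38.p6), the members had a GC content of 58.7% to 78.3% against a median of 52.7% over all 32851 promoters, and 23 to 52 CpG dinucleotides against a median of 7. The GC box GGGCGG, searched on both strands, occurred in 9 of the 10 windows, with *Supt6* as the exception, and in 35.7% of all promoters. The CCAAT box, CCAAT, occurred in 4 windows (*Cdk9*, *Ccnt2*, *Ccnk* and *Ell2*; 37.4% of all), the E-box CACGTG in that of *Top1* (7.2% of all) and the TATA box TATAAA in none (13.6% of all). Such matches describe letters and are not binding sites. The upstream parts of 3 windows are shown, with GC boxes, CCAAT boxes and the E-box of either strand in capitals. In the results that follow, *Top1* lay above, and *Ccnt2* and *Cdk13* below, all control libraries. *Cdk9*, *Ccnk* and *Ell2* also lay above them, but too little of their windows lies outside the annotated gene to be printed. A relation of motifs to the direction of change was not tested. In *Ccnt2*, a CCAAT box and a GC box overlap.

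*Top1*, chr2:160645647-160645887, plus strand: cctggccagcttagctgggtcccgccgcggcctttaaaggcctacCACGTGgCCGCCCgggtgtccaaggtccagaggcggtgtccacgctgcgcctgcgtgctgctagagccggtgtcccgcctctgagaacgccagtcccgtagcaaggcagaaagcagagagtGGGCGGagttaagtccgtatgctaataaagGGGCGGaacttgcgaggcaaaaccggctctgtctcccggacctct
*Ccnt2*, chr1:127773914-127774163, plus strand: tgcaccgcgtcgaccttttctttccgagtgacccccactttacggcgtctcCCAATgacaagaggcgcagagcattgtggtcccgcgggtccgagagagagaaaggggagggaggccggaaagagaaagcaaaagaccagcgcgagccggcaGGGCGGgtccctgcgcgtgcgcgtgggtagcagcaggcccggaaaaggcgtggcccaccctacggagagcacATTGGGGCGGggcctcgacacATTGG
*Cdk13*, chr13:17805213-17805347, minus strand, with none of these motifs in the part shown: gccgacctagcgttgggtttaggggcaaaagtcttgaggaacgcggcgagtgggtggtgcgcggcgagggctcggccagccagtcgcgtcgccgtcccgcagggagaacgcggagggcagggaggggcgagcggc

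The libraries held 60.8 to 79.2 mio mapped reads, recovered from the steps between low RPKM values (reads per kilobase of transcript, relative to library size). This is more than the paper states per sample for its paired-end sequencing. Whether a recovered read is a pair or a single end of it was not tested, so read counts below may not be independent fragments. *Ctcflos* (*1300015D01Rik*) itself was at 0.0969, 0.0705 and 0.210 RPKM in the KD libraries and at 0.748, 0.751 and 0.840 RPKM in the controls, so that 16.1% was left. With the pseudocount of 1, which shrinks differences at so low a level, its log2 fold change was -0.66 (limma adjusted p = 0.0254), and with a pseudocount of 0.1 it was -2.01 (adjusted p = 0.0191). At the pseudocount of 1 and with 1 library left out, the fall of *Ctcflos* passed without KD replicate 3 (adjusted p = 0.00973) and not in the other 5 fits (0.0619 to 0.130), with a log2 fold change of -0.72 to -0.63. The adipocyte markers summed to 4227 to 5629 RPKM in KD and 5899 to 6556 RPKM in control libraries, and the brite and brown markers to 74.9 to 90.5 against 124 to 180 RPKM. All 7 adipocyte markers had negative fold changes, and 1 was called. This was *Cebpa*, at 42.8 ± 18.2 RPKM in KD and 75.9 ± 2.12 RPKM in control libraries (log2 fold change -0.89, limma adjusted p = 0.0381). Of the other cell types the culture could hold, all 5 endothelial, 3 of 4 mural and 3 of 5 macrophage markers stayed under 1 RPKM in every library. The macrophage markers summed to 5.46, 4.95 and 3.48 RPKM in the KD libraries against 1.13 to 3.37 RPKM in the controls, with *Cd68* (called higher) and *Csf1r* making up most of the sum, while *Ptprc*, *Mrc1* and *Emr1* were under 1 RPKM and had lower means after KD. The adipocyte progenitor markers summed to 167 to 390 RPKM in KD and 264 to 439 RPKM in control libraries. Of them *Pdgfra* fell from 21.8 ± 2.57 to 13.1 ± 0.922 RPKM (log2 fold change -0.69, adjusted p = 0.0104). *Ly6a*, which made up most of the sum, overlapped between the groups (limma adjusted p = 0.466). *Cd34* and *Pi16* had higher means after KD, and *Dpp4* had a lower one. The dividing cell markers summed to 29.1 to 39.5 against 27.2 to 35.7 RPKM with none called. The sums of the adipocyte, brite and brown, macrophage and endothelial markers did not overlap between the groups. Those of the endothelial markers were 0.531 to 0.872 RPKM in KD and 0.991 to 1.19 RPKM in control libraries. The 5 brite and brown markers tested had negative fold changes, while *Dio2*, under 1 RPKM, had a higher mean after KD (0.410 against 0.197 RPKM). The part of the marker sums in the values of the elongation genes was not tested. In bulk RNA, more RNA per cell and more cells of a type cannot be told apart. KD replicate 3 lay closer to the controls than the others: it was the KD library farthest from the control mean in 17.4% of the 11701 genes tested, against 40.7% for KD replicate 1 and 41.9% for KD replicate 2.

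In the control cells, *Ell2* was the most abundant of the 10 genes and *Ccnk* the least. The level of a gene is the mean RPKM over all its accessions, which is per length and can be set beside that of other genes. *Ell2* was at 11.1 ± 1.28 RPKM (SD, n = 3), followed by *Cdk13* at 6.99 ± 0.258, *Ccnt1* at 6.0 ± 0.498, *Supt5* at 4.87 ± 0.186 and *Ccnt2* at 4.17 ± 0.0561 RPKM. *Cdk12* at 3.89 ± 0.156 and *Supt6* at 3.88 ± 0.204 RPKM had overlapping ranges over the control libraries, as had *Cdk9* at 2.59 ± 0.329 and *Top1* at 2.42 ± 0.183 RPKM. *Ccnk* was at 1.11 ± 0.105 RPKM. The ranges of all other neighbours in this order were apart. The order depends on the accessions averaged. With the RefSeq accession alone, *Top1* was at 5.60 ± 0.734 RPKM, or 2.31 times its mean over accessions, and stood in place 6 instead of 9. *Ccnt1* then came second at 7.96 ± 0.718 RPKM, *Ccnt2* moved from place 5 to 3 at 6.82 ± 0.0812 RPKM, and *Cdk13* from place 2 to 4 at 5.98 ± 0.187 RPKM.

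*Cdk9* was the 1 member that passed the test after *Ctcflos* KD, and it rose. It was at 6.33, 4.91 and 3.28 RPKM in the KD libraries and at 2.95, 2.51 and 2.31 RPKM in the controls. All 3 KD libraries were above all controls, with KD replicate 1 highest and KD replicate 3 just above the highest control. The mean was 4.84 ± 1.52 against 2.59 ± 0.329 RPKM, a ratio of 1.87, with a log2 fold change of 0.67 (SE 0.19, 95% interval 0.24 to 1.10, limma adjusted p = 0.0358). That is 1 of 10 members called, and over all 11701 genes tested 24.0% were called, 11.5% as higher and 12.4% as lower, so the share of members called was below that background. The call is narrow. Without a filter on low values the adjusted p was 0.0955, and with 1 library left out it held in 1 of 6 fits, that without KD replicate 3 (log2 fold change 0.88, adjusted p = 0.00187). It was 0.0851 without KD replicate 1, 0.104 without KD replicate 2, and 0.0875, 0.0973 and 0.128 without NC ctrl replicates 1, 2 and 3.

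The cyclins that pair with CDK9 did not pass the test, and both had a negative fold change. *Ccnt1*, which encodes cyclin T1, was at 5.58, 5.64 and 5.25 RPKM in KD and at 6.26, 5.43 and 6.32 RPKM in control libraries. Its groups overlapped, since control replicate 2 was below 2 KD libraries (log2 fold change -0.11, 95% interval -0.33 to 0.12, adjusted p = 0.449). *Ccnt2*, which encodes cyclin T2, was at 3.63, 3.05 and 3.57 RPKM in KD libraries and at 4.24, 4.14 and 4.14 RPKM in controls, which hardly differed among themselves. All 3 KD libraries of *Ccnt2* were below all controls, with KD replicate 2 lowest, and the log2 fold change of -0.23 (95% interval -0.45 to -0.02) had a limma adjusted p = 0.107.

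**Figure D1:**
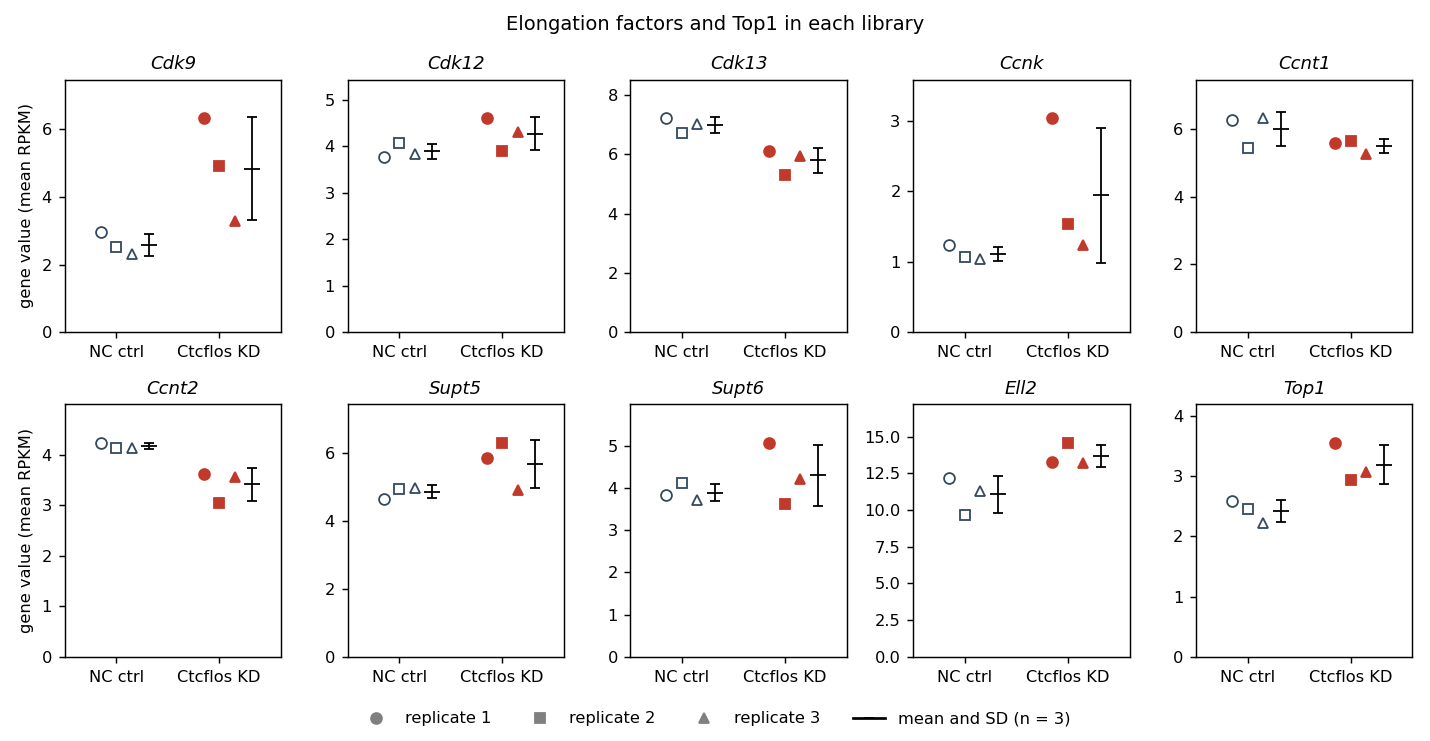
RPKM of the 10 genes (y axis, mean over the accessions of a gene, from 0) in each of the 3 NC ctrl libraries (open) and 3 *Ctcflos* KD libraries (filled), with the mean and SD at the right of each group (n = 3). *Cdk9*, *Ccnk*, *Ell2* and *Top1* lie above the controls in all KD libraries, *Cdk13* and *Ccnt2* below them, and the groups of the other 4 genes overlap.

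The kinases of the second pair, which act further along the gene, did not pass the test either. *Cdk12* was at 4.60, 3.90 and 4.30 RPKM in KD and at 3.77, 4.07 and 3.83 RPKM in control libraries, and the groups overlapped (log2 fold change 0.10, 95% interval -0.11 to 0.32, adjusted p = 0.439). *Cdk13* was at 6.12, 5.32 and 5.96 RPKM in KD and at 7.22, 6.71 and 7.03 RPKM in control libraries. All KD values of *Cdk13* were below all controls, with a ratio of means of 0.830 and a log2 fold change of -0.23 (95% interval -0.46 to -0.01), but its adjusted p in limma was 0.114. Their common cyclin, *Ccnk*, was at 3.04, 1.54 and 1.24 RPKM in KD and at 1.23, 1.07 and 1.03 RPKM in control libraries. Here KD replicate 1 stood far above the other libraries, while KD replicate 3 and NC ctrl replicate 1 nearly touched. The log2 fold change of *Ccnk* was 0.43 (95% interval -0.03 to 0.89, adjusted p = 0.149), and it was 0.18 (adjusted p = 0.285) without KD replicate 1 and 0.60 (adjusted p = 0.0339) without KD replicate 3. The protein-coding Ensembl transcript of *Ccnk* alone held 652, 351 and 223 reads in KD and 284, 251 and 184 reads in control libraries. These were the fewest among the protein-coding Ensembl transcripts of the members in the table.

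None of the 3 elongation factors passed the test. *Ell2* was at 13.3, 14.6 and 13.2 RPKM in KD and at 12.2, 9.68 and 11.3 RPKM in control libraries. Its groups did not overlap, the control replicate 2 being the lowest library, and the log2 fold change was 0.29 (95% interval 0.02 to 0.56, limma adjusted p = 0.109). *Supt5* was at 5.86, 6.31 and 4.92 RPKM in KD and at 4.65, 4.96 and 4.99 RPKM in control libraries, with KD replicate 3 among the controls. Its log2 fold change was 0.19 (95% interval -0.06 to 0.43, adjusted p = 0.239) and 0.27 (adjusted p = 0.0444) without that library. *Supt6* was at 5.06, 3.62 and 4.20 RPKM in KD and at 3.83, 4.11 and 3.71 RPKM in control libraries. The KD libraries of *Supt6* enclosed the control range, and its log2 fold change was 0.11 (95% interval -0.16 to 0.38, adjusted p = 0.522), with 0.0062 without KD replicate 1 and 0.20 without KD replicate 2.

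*Top1* was the member nearest to the threshold among those not called. It was at 3.55, 2.93 and 3.07 RPKM in KD and at 2.59, 2.45 and 2.22 RPKM in control libraries. All KD libraries of *Top1* lay above all controls, the lowest KD library exceeding the highest control by less than the range within either group. The mean was 3.18 ± 0.322 against 2.42 ± 0.183 RPKM, a ratio of 1.31, with a log2 fold change of 0.29 (95% interval 0.06 to 0.51, limma adjusted p = 0.0655). It passed without KD replicate 3 (adjusted p = 0.0443) and in no other of the 12 alternatives, over which its log2 fold change ran from 0.23 to 0.38.

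Over the 10 members, 7 fold changes were positive and 3 negative, with a median of 0.15 on the log2 scale against 0.03 over all genes tested. The groups did not overlap for 6 members, 4 of them higher and 2 lower after KD, whereas they did not overlap for 44.8% of all genes tested. An exact two-sided permutation test of 3 against 3 libraries cannot go below p = 0.1, which these 6 members reached. Before adjustment, 5 members (*Cdk9*, *Top1*, *Ccnt2*, *Ell2* and *Cdk13*) and 4556 of the 11701 genes had p under 0.05. The plot of fold changes shows that no member changed its direction under any alternative.

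**Figure D2:**
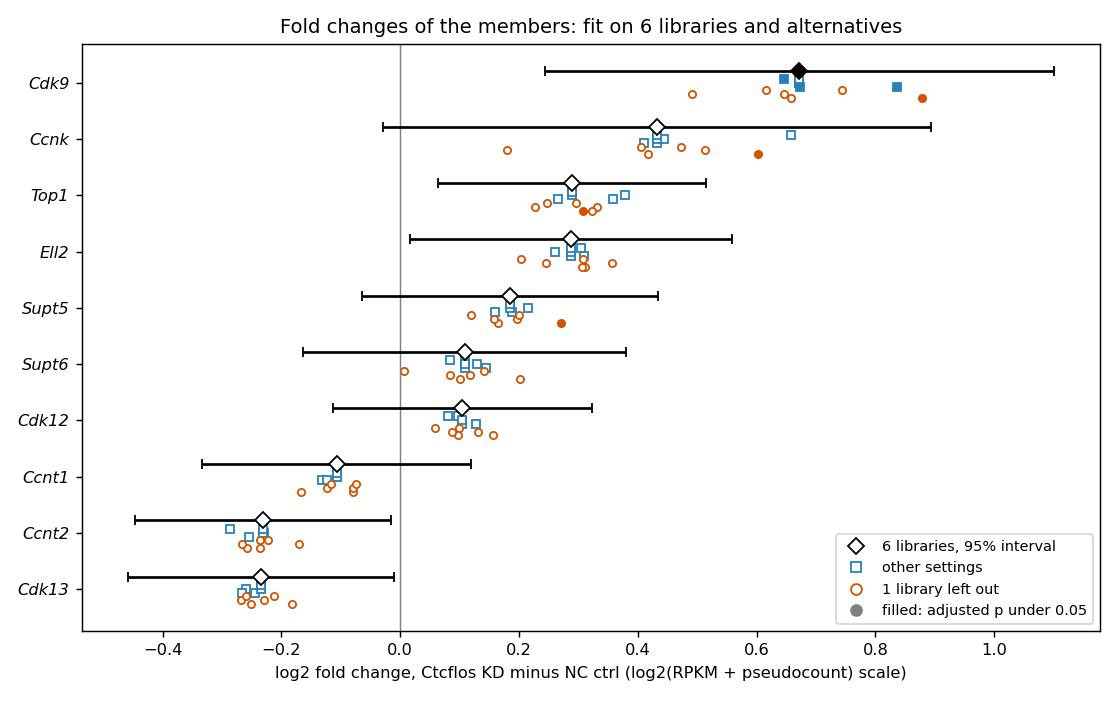
Log2 fold change (x axis, *Ctcflos* KD minus NC ctrl) of each gene in the fit on 6 libraries (diamonds with 95% interval), in 6 fits with other settings (squares) and in 6 fits with 1 library left out (circles). Filled symbols have an adjusted p under 0.05: for *Cdk9* they appear in 6 of 12 alternatives, for *Ccnk*, *Supt5* and *Top1* in 1 each, that without KD replicate 3, and for the other 6 genes in none.

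The transcript accessions of a gene, which overlap and share reads, gave the same picture as the gene means. Of the 105 accession lines of the members, 91 had a mean of at least 1 RPKM, 58 of them with a positive and 33 with a negative fold change. 11 passed the test as higher and 0 as lower, where 26.0% of all 67403 accessions tested passed in either direction. With 1 library left out, 20 passed as higher without KD replicate 3 and 0 without any of the other 5. Gene calls over the whole table also rose without KD replicate 3, to 2727 of 11704 as higher, against 1349 of 11701 with all 6 libraries. Of the 11 accessions, 10 belonged to *Cdk9*, whose 11 accessions had log2 fold changes of 0.46 to 0.74. The RefSeq mRNA of *Cdk9* was at 5.75, 4.54 and 3.12 RPKM in KD and at 2.58, 2.30 and 2.21 RPKM in control libraries (log2 fold change 0.67, adjusted p = 0.0227). The Ensembl transcripts of *Cdk9* in the table are annotated as retained intron or nonsense-mediated decay. The longest of them, with 3565 bases, held 1501, 1188 and 672 reads in KD and 703, 656 and 481 reads in control libraries. KD replicate 3 thus had fewer reads than NC ctrl replicate 1, and a higher RPKM, at a depth of 60.8 against 78.0 mio mapped reads. The remaining called accession, AK161863, was the most abundant of *Top1*, at 16.9, 13.4 and 13.6 RPKM in KD and at 11.8, 10.6 and 9.42 RPKM in control libraries (log2 fold change 0.42, adjusted p = 0.0471). The RefSeq mRNA of *Top1* did not pass (log2 fold change 0.36, adjusted p = 0.0700).

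All 8 accessions of *Cdk13* tested lay between -0.26 and -0.19, all 14 of *Ccnt2* between -0.32 and -0.05, and all 10 of *Ccnt1* between -0.19 and -0.01 on the log2 scale. All 13 of *Cdk12*, 7 of *Supt5*, 10 of *Ell2*, 6 of *Top1* and 5 of *Ccnk* were positive, and *Supt6* had 6 positive and 1 negative accession. Whether the accessions of a gene changed unequally was tested with limma diffSplice, in which 66 of 10027 genes, or 0.658%, were called. No member was among them. Their unadjusted p ran from 0.397 for *Top1* to 0.969 for *Ccnk*, 0 members against 361 of the 10027 genes had p under 0.05, and the gene-level F test also called none.

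**Figure D3:**
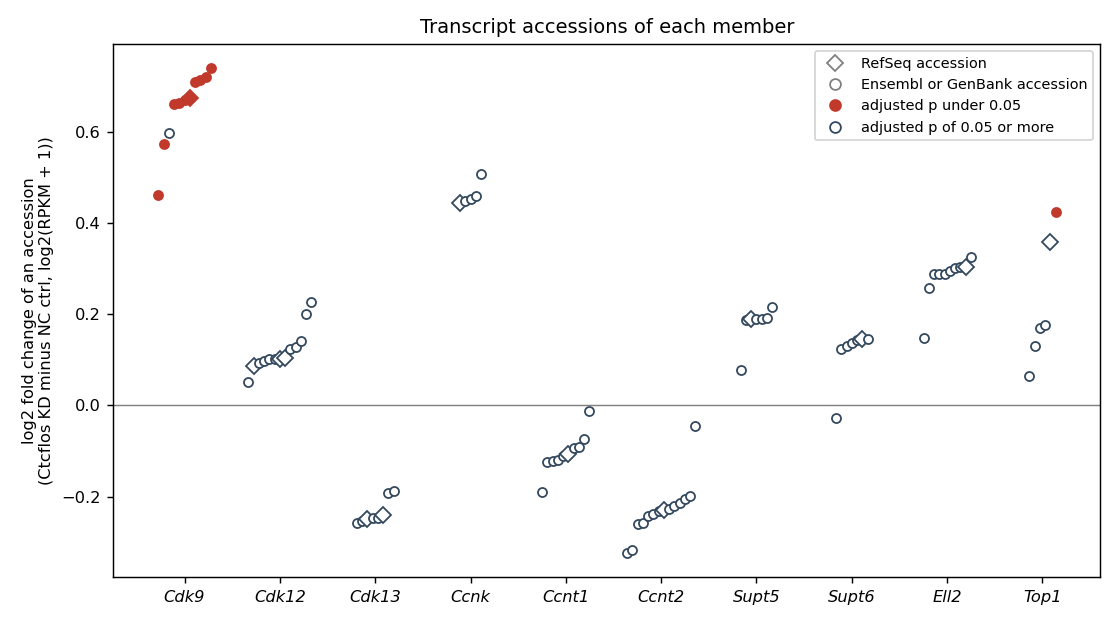
Log2 fold change (y axis, *Ctcflos* KD minus NC ctrl) of the 91 accessions tested, each 1 symbol, ordered by value within a gene, with RefSeq accessions as diamonds and an adjusted p under 0.05 in red. *Cdk9* holds 10 of the 11 called accessions and *Top1* the other, and the accessions of a gene lie on 1 side of 0 for all genes but *Supt6*.

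Other genes were taken from 11 lists with 92 genes of elongation and related steps. Some of them belong to initiation, Mediator, termination, topoisomerases or DNA repair rather than to elongation itself. Of the 92, 73 were tested. 12 of these rose (16.4%), 2 fell (2.74%) and 59 did not pass, beside 11.5% and 12.4% of all genes tested, and their median log2 fold change was 0.08. As the plot of the lists shows, the genes that rose were spread over 7 lists with 1 or 2 each. The number rests on single libraries: 22 rose without KD replicate 3, but 3 without KD replicate 1, 2 without KD replicate 2, 3 without NC ctrl replicate 2 and 0 without NC ctrl replicate 1 or 3. Calls over all genes moved in the same way. Without KD replicate 3, 2727 of 11704 genes were called higher. It was 445 of 11563 without KD replicate 1 and 447 of 11751 without KD replicate 2. Without NC ctrl replicates 1, 2 and 3 it was 132 of 11689, 625 of 11697 and 130 of 11692. Over the 12 alternatives, *Setd2* and *Med13* kept the call in 10, *Polr2b* in 8, *Brd2*, *Polr2m*, *Topors* and *Cdk19* in 6, *Mepce*, *Polr2d*, *Ctdsp1*, *Ctdp1* and *Ctdspl* in 5, *Tdp2* in 4 and *Supt16* in 2.

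Among the regulators of P-TEFb, 2 of 7 rose and 0 fell. *Brd2*, a bromodomain protein of acetylated chromatin, was at 31.0, 27.7 and 18.0 RPKM in KD and at 13.3, 12.1 and 13.7 RPKM in control libraries (log2 fold change 0.89, adjusted p = 0.0175). *Mepce*, which caps the 7SK RNA that holds P-TEFb inactive, was at 6.44, 5.33 and 4.43 RPKM in KD and at 3.51, 3.68 and 3.42 RPKM in control libraries (0.49, adjusted p = 0.0292). In both genes, as in *Cdk9*, KD replicate 1 was the highest library and KD replicate 3 the lowest of the KD libraries, still above all controls. *Hexim1*, the inhibitor of P-TEFb in the 7SK complex, was chosen after its values were seen and had a log2 fold change of -0.03 (adjusted p = 0.886).

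Of the pausing factors, 1 of 6 rose: *Polr2m*, whose product GDOWN1 associates with the polymerase, at 46.3, 47.0 and 34.7 RPKM in KD and at 27.1, 24.6 and 28.0 RPKM in control libraries (log2 fold change 0.65, adjusted p = 0.0195). No NELF subunit and not *Supt4a*, the partner of *Supt5*, passed. In the list of elongation chaperones and partners of *Supt6*, 2 of 6 genes rose. They were *Setd2*, the methyltransferase of histone H3 lysine 36 (0.64, adjusted p = 0.0117), and *Supt16*, a subunit of the FACT complex (0.30, adjusted p = 0.0499). The list also holds *Supt20* and *Supt7l*, which are neither chaperones nor such partners and did not pass. *Setd2* was at 8.98, 8.34 and 6.71 RPKM in KD and at 4.53, 4.95 and 4.76 RPKM in control libraries, a clear gap. None of the 5 genes tested of the super elongation complex, in which ELL2 works, passed (smallest p *Mllt1*, log2 fold change -0.29, adjusted p = 0.0953), none of 6 of the PAF1 complex (*Rtf1*, 0.33, adjusted p = 0.0803) and none of 5 of TFIIS and elongins (*Tceb3*, 0.20, adjusted p = 0.179).

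Of 10 RNA polymerase II subunits, 2 rose: *Polr2b*, the second-largest subunit (log2 fold change 0.52, adjusted p = 0.0198), and *Polr2d* (0.63, adjusted p = 0.0408). The median of the 10 was 0.41 on the log2 scale, the highest of the lists, with 8 positive and 2 negative values. Of 8 genes of the initiation kinase and the Mediator kinase module, *Med13* rose from 4.37 ± 0.400 to 9.15 ± 2.68 RPKM (0.89, adjusted p = 0.0149), and *Cdk19*, a kinase of the module, fell (-0.36, adjusted p = 0.0415). Of 5 genes of other topoisomerases and their repair, 2 rose: *Topors*, a ligase that binds topoisomerase I (0.62, adjusted p = 0.0287), and *Tdp2*, which removes trapped topoisomerase II from DNA ends (0.57, adjusted p = 0.0483). No topoisomerase passed.

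The phosphatases that reverse CTD phosphorylation went both ways. Among 11 genes of CTD phosphatases and termination, *Ctdsp1* (log2 fold change 0.46, adjusted p = 0.0391) and *Ctdp1* (0.44, adjusted p = 0.0442) rose and *Ctdspl* fell (-0.38, adjusted p = 0.0310). Of the DNA repair genes whose expression is known to need CDK12, 4 of 9 were tested and none passed. Their fold changes were all negative, with a median of -0.21 on the log2 scale, and the smallest p was that of *Brca1*. *Brca1* was at 2.49, 2.95 and 4.17 RPKM in KD and at 4.38, 5.14 and 4.32 RPKM in control libraries (-0.43, adjusted p = 0.0711), with KD replicate 3 next to the controls. Its limma adjusted p was 0.00464 without that library, and 0.149 to 0.188 when any other library was left out.

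**Figure D4:**
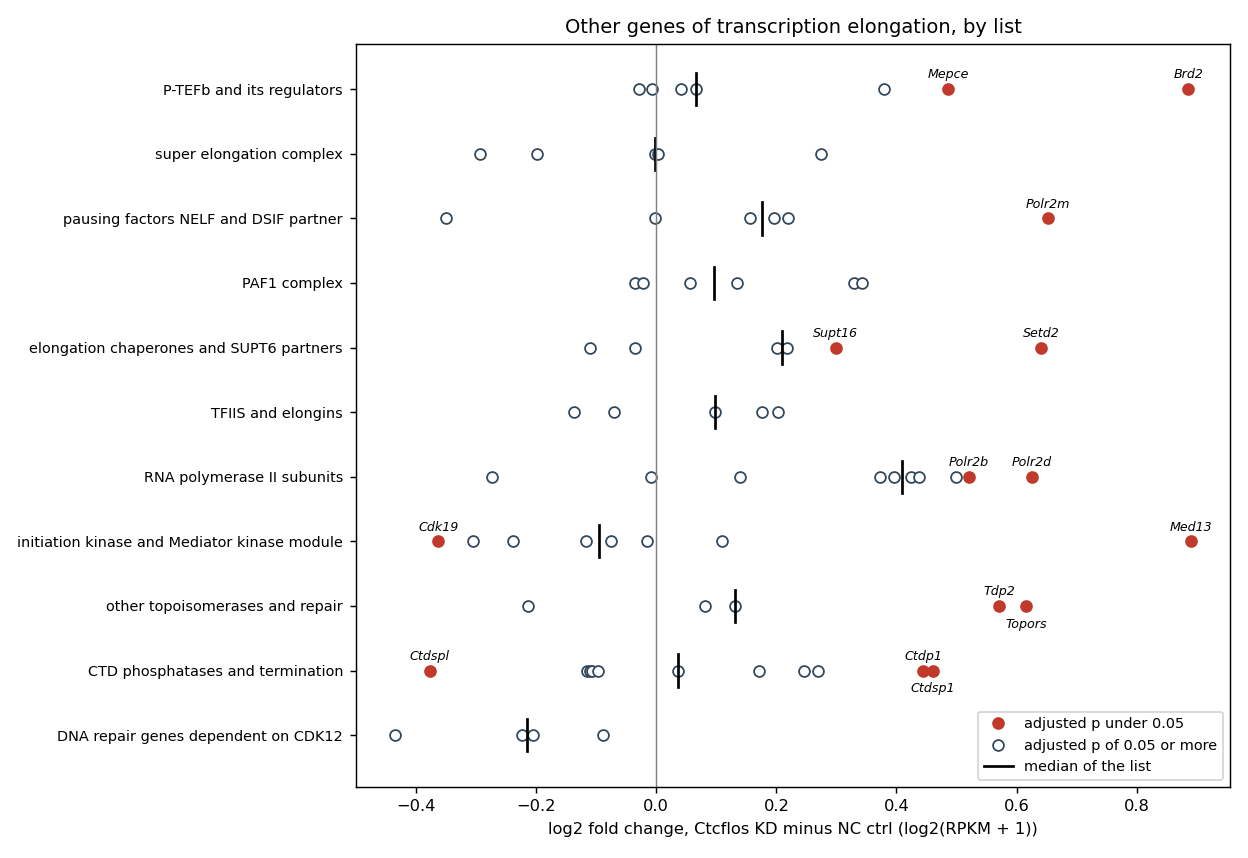
Log2 fold change (x axis, *Ctcflos* KD minus NC ctrl) of the 73 tested genes of 11 lists (rows), with the median of each list as a bar and genes of adjusted p under 0.05 in red and named. 12 genes are red on the right and 2, *Cdk19* and *Ctdspl*, on the left, and the bar of the RNA polymerase II subunits is the farthest to the right at 0.41.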

How the data were processed

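RNA of 6 libraries (TruSeq Stranded Total RNA) was measured by RNA-seq, and groups and replicate numbers were taken from the sample labels. The authors deposited 1 table of RPKM per transcript accession of RefSeq, Ensembl and GenBank, with replicates kept apart. How it was made is not given in the sources used here. The paper names STAR 2.5.3a and GRCm38 for its splice analysis. Of 168326 lines, 305 exact repeats were removed. Depth was recovered from Ensembl transcripts with a Gencode vM21 length, in which 96.5 to 96.9% of low values were whole reads within 0.1.

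The gene value was the mean RPKM over the accessions of a symbol. Genes or accessions with a mean of at least 1 RPKM were tested with limma (trended prior variance) on log2(RPKM + 1), which understates the change of low genes. *Ctcflos*, with a mean under 1, was taken from a fit without a filter. Usage was tested with diffSplice (Simes), and p-values were adjusted by Benjamini-Hochberg over all features tested, with calls under 0.05. The planned count tests were not used because the table holds RPKM. Within the lists, genes called were named by smallest p, up to 4 in each direction, or else the gene with the smallest p. The members and lists were chosen with earlier results of these data known. Alternatives were a pseudocount of 0.1, no filter, a replicate block, scaling by the median of ratios, RefSeq accessions alone, no trend, the gene-level F test, and leaving out each library.

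On simulated data with an SD of 0.15 on the log2 scale, the fit called 200 of 200 changed genes with 8 false calls among 11504. With diffSplice it was 121 of 121 changed genes, with 9 false calls among 9959. Recovery at the effect sizes and spread of the members was not tested. Promoter motifs were searched in RefSeq windows, and sequence is printed only where it lies outside the annotated span of its own gene. Overlap of the printed sequence with other genes was not checked. Python 3.11.15, pandas 2.3.3, numpy 2.4.6, scipy 1.17.1, matplotlib 3.10.9, R 4.3.3 and limma 3.58.1 were used.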

Additional observations from a re-analysis of the deposited data

How the results depend on the processing

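The 10 members kept the direction of their fold change in all 12 alternatives, and their calls moved in few: 111 values stayed on their side of the threshold, 6 lost the call (all *Cdk9*) and 3 gained one (*Ccnk*, *Supt5* and *Top1* without KD replicate 3). Without a filter on low values 0 members were called higher, and the listed genes called came to 3 higher and 0 lower, while all genes called went from 2803 of 11701 to 1807 of 38335. With a replicate block in the fit, 5 listed genes were called higher and 0 lower, all genes called came to 1671, *Cdk9* stayed called (adjusted p = 0.0314), and the fold change of *Ctcflos*, -0.66 on the log2 scale, no longer passed (adjusted p = 0.113). Libraries with the same number did not deviate together (correlations of 0.29, -0.29 and -0.42 for numbers 1, 2 and 3), so the numbers were not taken as pairs. With RefSeq accessions alone, 5 listed genes were called lower. With 1 library left out, 0 to 4 members, 0 to 22 listed genes and 0 to 20 member accessions were called higher, 0 to 8 listed genes and 0 to 3 member accessions lower, and 369 to 4810 genes in all, the highest without KD replicate 3 and the lowest without NC ctrl replicate 3. The log2 fold change of *Ctcflos* (pseudocount of 1) then lay between -0.72 and -0.63 and passed in 1 of 6 fits, that without KD replicate 3. Fewer libraries give fewer degrees of freedom, and beyond that the cause was not tested. Scaling by the median of ratios moved the median of all genes from 0.028 to 0.004 on the log2 scale. No alternative called a member for accession usage.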

Other observations

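The balance between the kinases and their cyclins was compared as 3 ratios of RPKM, chosen after the values of the members were seen. The ratio of *Cdk9* to the sum of *Ccnt1* and *Ccnt2*, the subunits of P-TEFb, came to 0.687, 0.565 and 0.372 after KD, while control libraries had 0.281, 0.262 and 0.221, with means of 0.542 ± 0.159 and 0.255 ± 0.0309 (SD, n = 3). The ratio of *Cdk12* to *Cdk13* was 0.752, 0.733 and 0.721 in KD and 0.522, 0.606 and 0.545 in control libraries. It varied little within the KD group, at 0.735 ± 0.0157 against 0.558 ± 0.0433, although neither kinase passed its own test. The ratio of *Ccnk* to the sum of *Cdk12* and *Cdk13* was 0.283, 0.167 and 0.121 in KD and 0.112, 0.0992 and 0.0950 in control libraries. Groups were apart in all 3 ratios, also with RefSeq accessions alone, where *Cdk12* to *Cdk13* was 1.26 ± 0.0374 in KD and 0.956 ± 0.0721 in control libraries. Over all accessions, the ratios of *Cdk9* and of *Ccnk* could only come out apart. Each gene alone lay above all controls, and the sum it was divided by lay below them. These ratios restate the member values and add no test of their own. The exact two-sided permutation test gave p = 0.1 for each, the smallest that 3 against 3 libraries can give, before and after adjustment over the 3 ratios. Of single genes, 44.8% also had groups that did not overlap, but this share is no background for ratios chosen from seen values.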
